A study of Mus musculus with 24 samples.

Results

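The genes examined here are 3 members of the Cited family of transcriptional coactivators, *Cited1*, *Cited2* and *Cited4*, together with *Crebbp* and *Ep300*, which encode the acetyltransferases CBP and p300. They are 5 of 55471 annotated genes. The set was chosen by the values of *Cited1*, which was selected on its strong rise in read counts of late 2-cell embryos after knockdown of *Ythdc1*. The other 4 genes entered by family or by known interaction. The values of *Cited1* in the knockdown are therefore given as a description without a test.

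CITED proteins do not bind DNA themselves. Through a conserved acidic carboxy-terminal domain they bind the CH1 (TAZ1) domain of CBP and p300, and so bring these acetyltransferases to transcription factors of the AP-2 and SMAD groups or compete with other factors for the same surface. CITED2 is best known as an inhibitor of hypoxia-inducible factor 1, since it displaces the alpha subunit of that factor from CBP and p300. CBP and p300 acetylate histones at enhancers and promoters and serve as docking sites for a large number of factors, among them CREB, SMADs and the p160 coactivators. YTHDC1 is the nuclear reader of N6-methyladenosine (m6A), the most common internal mark of mRNA.

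All libraries came from wild-type B6D2F1 mice, with oocytes from superovulated young adult females and embryos from matings with B6D2F1 males. In SLIM-seq, a method for m6A profiling of small samples, RNA was sequenced in 3 libraries per stage after m6A immunoprecipitation (IP) and in 3 per stage without it (input), with MII oocytes, embryos late in the 1-cell stage (L1C) and embryos late in the 2-cell stage (L2C). For the knockdown, zygotes were injected in the cytoplasm with Cas13d mRNA and 3 crRNAs against *Ythdc1* (Ythdc1-KD, called KD here), or with Cas13d mRNA alone (Ythdc1-NC, called Ctrl here), and 3 libraries of L2C embryos were made per group. Both groups thus carried Cas13d, and the Ctrl embryos received no crRNA. Each library pooled many oocytes or embryos. Since no source used here says that replicates came from separate collections, p-values measure only the spread between these libraries.

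SLIM-seq libraries held 11107421 to 39739950 counts, and KD and Ctrl libraries read over the whole annotation 8696476 to 14500548. In the KD experiment the merged count table holds a part of the annotation, with *Cited1*, *Cited4* and *Ythdc1* in all 6 libraries. It ends on chromosome 7, as do the counts of KD replicate 3. *Cited2*, *Crebbp* and *Ep300* lie beyond that point, so they were compared in 2 KD and 3 Ctrl libraries. The summed level of 8 oocyte markers was between 9420 and 11200 CPM (counts scaled to library size) in MII inputs and between 756 and 782 in L2C inputs, and that of 6 markers of the 2-cell embryo was between 7.85 and 8.86 CPM in MII inputs and between 287 and 406 in L2C inputs. Of 9 markers of cumulus cells, the somatic cells around the oocyte, only *Ptx3* was at 0 in all 9 inputs. It was also at 0 in all 5 KD and Ctrl libraries with the whole annotation. The summed level of the cumulus list was between 27.1 and 29.4 CPM in MII inputs, between 11.2 and 11.6 in L1C inputs and between 237 and 257 in L2C inputs. These sums are in the 18-library scaling. In the scaling of the 9 inputs alone, *Cyp11a1* had a mean of 13.9 CPM at MII, 1.57 at L1C and 0.516 at L2C. *Inhba*, *Ptgs2* and *Tnfaip6* had means of 2.83, 2.58 and 2.34 CPM at MII in that scaling. *Amhr2* by itself had a mean of 256 CPM at L2C and 0.708 at MII. The part of these marker genes in the results was not tested.

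The 3 crRNAs are shown because their pairing with the members can be read directly. All letters of each pair with *Ythdc1*, and the capitals mark the longest stretch that is complementary to a *Cited1* transcript of GENCODE M21.
crRNA 1: cCTCATTCTcagtgttgttgccc
crRNA 2: aattcatcatcctgttcTGGTAC
crRNA 3: ctCTCAGAAccatctggtgtagg
Of 23 bases, the longest stretch complementary to *Cited1* was 8 for crRNA 1, 6 for crRNA 2 and 7 for crRNA 3. For *Cited4* it was 5, 6 and 7. The longest stretch in any member was 12, between crRNA 2 and *Ep300*. Only exact matches were searched, and no background over other transcripts was made. The part of such pairing in the changes of the members was not tested.

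*Cited1* (ENSMUSG00000051159) lies on chrX:102247381-102252181 (GRCm38, minus strand), *Cited2* (ENSMUSG00000039910) on chr10:17723218-17725674 (plus strand) and *Cited4* (ENSMUSG00000070803) on chr4:120666572-120667820 (plus strand). *Crebbp* (ENSMUSG00000022521) lies on chr16:4081328-4213997 (minus strand) and *Ep300* (ENSMUSG00000055024) on chr15:81585351-81652077 (plus strand). *Cited4* has a single exon, and the exons of *Cited2* transcripts together cover its whole span of 2457 bases. By contrast, the span of *Crebbp* is 9.8 times and that of *Ep300* 4.68 times the length of its merged exons, which matters because SLIM-seq reads were assigned to whole gene spans, introns included. The genes that overlap *Crebbp* or *Ep300* held no counts in any SLIM-seq library.

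The 250 bases before the start of the 3 *Cited* genes are printed because these genes moved most between stages or in the knockdown (RefSeq, GRCm38.p6, read on the strand of the gene). *Cited1* has further annotated starts, and the most upstream of them is shown. The capitals in *Cited2* mark the palindrome CACGTG, which holds ACGTG, the core of the hypoxia response element, on both strands.
*Cited1*, chrX:102252182-102252431: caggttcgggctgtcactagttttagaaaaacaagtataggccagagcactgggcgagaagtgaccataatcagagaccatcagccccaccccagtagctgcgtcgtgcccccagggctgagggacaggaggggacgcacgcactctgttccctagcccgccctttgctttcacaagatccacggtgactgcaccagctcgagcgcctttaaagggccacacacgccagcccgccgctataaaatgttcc
*Cited2*, chr10:17722978-17723227: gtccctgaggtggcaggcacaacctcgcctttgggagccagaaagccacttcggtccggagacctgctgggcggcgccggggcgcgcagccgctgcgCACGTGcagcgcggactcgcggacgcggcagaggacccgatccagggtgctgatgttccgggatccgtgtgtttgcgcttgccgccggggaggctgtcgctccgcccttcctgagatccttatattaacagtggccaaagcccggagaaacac
*Cited4*, chr4:120666313-120666562: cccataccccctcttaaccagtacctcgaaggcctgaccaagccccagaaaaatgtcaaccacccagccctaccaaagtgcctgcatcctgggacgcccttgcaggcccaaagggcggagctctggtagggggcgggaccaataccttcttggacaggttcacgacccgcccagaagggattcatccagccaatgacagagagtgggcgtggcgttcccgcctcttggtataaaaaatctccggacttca
The letters ACGTG were found on either strand in 16.6% of 32851 RefSeq promoters of this length. The AP-2 site GCCNNNGGC, present in 13.7% of them, and the CREB site TGACGTCA, present in 1.55%, were in none of the 3 sequences shown. Of the 2 further starts of *Cited1*, one had an AP-2 site and the other ACGTG in the 250 bases before it, and *Crebbp* had 2 AP-2 sites there. On the most frequent form of the m6A consensus, GGACT, the merged exons of *Cited1* held 1.14 copies per kb, those of *Cited2* 1.63, of *Cited4* 1.6, of *Crebbp* 1.18 and of *Ep300* 1.05, beside a median of 1.0 over 16105 expressed mRNAs.

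The input libraries answer how the RNA of each member changed from oocyte to 2-cell embryo. *Cited1* was close to absent in oocytes and became abundant at L2C, *Cited2* was present in oocytes and L1C embryos and fell at L2C, and *Cited4* dipped at L1C. *Ep300* rose strongly at L2C, and *Crebbp* dipped at L1C and rose again at L2C. Changes were called at a Benjamini-Hochberg (BH)-adjusted p under 0.05 in edgeR (quasi-likelihood test, TMM scaling), and log2 changes are given ± SE.

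**Figure D1:**
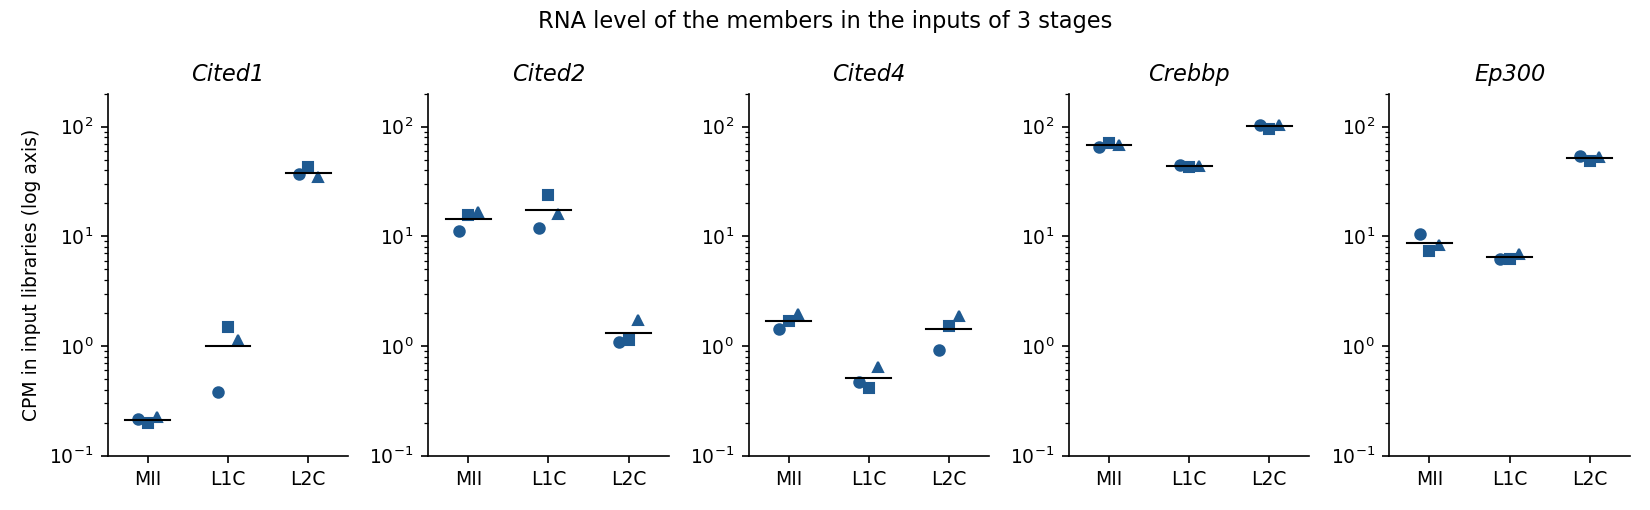
CPM of each member in the 3 inputs of each stage, on a log axis (circle, square and triangle are replicates 1, 2 and 3, and lines are means). *Cited1* goes from a mean of 0.214 CPM at MII to 38.1 at L2C, and *Cited2* from 14.4 to 1.31.

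*Cited1* was at 0.215, 0.2 and 0.225 CPM in the MII inputs, from 5, 4 and 4 counts. It was at 0.381, 1.49 and 1.13 CPM in the L1C inputs, from 9, 32 and 21 counts, and at 36.8, 42.7 and 34.7 CPM in the L2C inputs. The 3 stages did not overlap, but replicate 1 at L1C stood much closer to the MII libraries than its fellows did. *Cited1* thus rose by a log2 change of 2.18 ± 0.49 from MII to L1C (adjusted p = 0.0017) and by 5.27 ± 0.31 from L1C to L2C. It entered both comparisons through its L2C counts, and no p is given where L2C is itself compared. In a fit of MII and L1C alone it did not pass the filter on low values and was not tested. Pooled over libraries, 3360 counts at L2C stood against 13 at MII, a CPM ratio of 140 with an exact 95% interval of 81.6 to 263 that covers counting error only.

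*Cited2*, the inhibitor of hypoxia-inducible factor 1, was at 11.2, 15.6 and 16.5 CPM in the MII inputs and at 12, 24 and 16.1 CPM in the L1C inputs. It was at 1.08, 1.14 and 1.72 CPM in the L2C inputs. The first 2 stages overlapped, and their difference of 0.27 ± 0.25 in log2 did not pass the test (adjusted p = 0.38, approximate 95% interval of -0.22 to 0.76). Every L2C input was below every earlier one, and *Cited2* fell by 3.69 ± 0.3 in log2 from L1C to L2C (adjusted p = 2.6e-08), a 12.9-fold lower level.

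*Cited4* gave few counts at every stage. Its inputs held 1.42, 1.7 and 1.97 CPM at MII, 0.465, 0.418 and 0.647 CPM at L1C, and 0.912, 1.52 and 1.87 CPM at L2C. The L1C libraries, with 11, 9 and 12 counts, lay below all others, while MII and L2C overlapped. *Cited4* fell by 1.73 ± 0.39 in log2 from MII to L1C (adjusted p = 0.0017) and rose by 1.5 ± 0.38 from L1C to L2C (adjusted p = 0.0023). Between MII and L2C the log2 change was -0.23 ± 0.34, with an approximate 95% interval of -0.9 to 0.44 (adjusted p = 0.54).

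*Crebbp* was at 65.7, 70.3 and 68.2 CPM in MII inputs, at 45, 43.2 and 43.9 CPM in L1C inputs and at 104, 95.5 and 103 CPM in L2C inputs. No stage overlapped another. *Crebbp* fell by 0.63 ± 0.11 in log2 from MII to L1C (adjusted p = 0.00026) and rose by 1.2 ± 0.11 from L1C to L2C (adjusted p = 1.3e-07). From MII to L2C it rose by 0.57 ± 0.11 on the TMM scale (adjusted p = 0.00021), whereas the log2 ratio of the mean TPM deposited by the authors was -0.16, so that the direction of this last comparison depends on the scaling.

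*Ep300* was at 10.5, 7.29 and 8.4 CPM in MII inputs and at 6.26, 6.22 and 6.95 CPM in L1C inputs. It was at 54.3, 48.7 and 53 CPM in L2C inputs. All L2C libraries stood far above the rest. *Ep300* rose by 3.01 ± 0.17 in log2 from L1C to L2C (adjusted p = 5.2e-10), which is 8.03-fold. The fall of 0.43 ± 0.17 from MII to L1C was near the threshold (adjusted p = 0.039) and no longer passed it when MII input replicate 1, the highest, was left out (log2 change of -0.28, adjusted p = 0.19). Without MII input replicate 3 the adjusted p was 0.059, without L1C input replicate 1 it was 0.081 and without L1C input replicate 2 it was 0.091.

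From MII to L1C, 4 of the 5 members were called, beside 56.2% of the 19903 genes tested. All 5 were called from L1C to L2C, beside 82.9%, and 4 from MII to L2C, beside 84.6%. *Cited1* is counted in each, though it entered these tests only through its L2C counts. The member counts lie near these backgrounds, so that the sizes and directions carry the description and the number of calls does not. All changes are relative to the other RNAs of a library, and in these bulk samples fewer cells of a type and less RNA per cell cannot be told apart.

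Levels can be compared between genes only per length. As CPM per kb of merged exons, the MII order was *Cited2* (5.87 ± 1.15, mean ± SD, n = 3), *Crebbp* (5.03 ± 0.169), *Cited4* (1.36 ± 0.221), *Ep300* (0.611 ± 0.113) and *Cited1* (0.122 ± 0.00737), where only the first and second overlapped. At L1C *Cited2* led with 7.07 ± 2.49, followed by *Crebbp* with 3.25 ± 0.0665, while *Cited1* (0.57 ± 0.322), *Ep300* (0.454 ± 0.0289) and *Cited4* (0.408 ± 0.0968) overlapped. At L2C *Cited1* led with 21.7 ± 2.35, before *Crebbp* with 7.45 ± 0.347, *Ep300* with 3.64 ± 0.203, *Cited4* with 1.15 ± 0.389 and *Cited2* with 0.535 ± 0.144, and no neighbours overlapped. *Cited1* thus went from the last place to the first and *Cited2* from the first to the last. The deposited TPM, which divide by the whole gene span, place the long genes lower: *Cited4* was then above *Crebbp* at all 3 stages, by 1.75, 0.71 and 0.97 in log2 at MII, L1C and L2C, and *Ep300* was level with *Crebbp* at L2C (0.04 in log2).

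Among 8241 protein-coding genes with a mean of at least 10 CPM over the 9 inputs, the genes with the most similar course were named for each member by Pearson's r of log2(CPM + 1). The points of these correlations are 9 libraries in 3 stages, so that r mostly reflects the stage means. For *Cited1* they were *Ankrd54*, *Ube2v1* and *Ormdl3*, all at r = 0.999, with *Ormdl3* at 1.43, 3.13 and 131 CPM at MII, L1C and L2C. For *Cited2* they were *Alkbh5*, which encodes an m6A demethylase, at r = 0.998 with 550, 577 and 163 CPM, and *Midn* and *Fgf8* at r = 0.997. For *Cited4* they were *Exoc3* (r = 0.966), *Minos1* (r = 0.956) and *Ftsj3* (r = 0.952). For *Crebbp* they were *Prkdc* (r = 0.998), *Obox3* (r = 0.997), a homeobox gene of the early embryo, and *Yeats2* (r = 0.997), which encodes a reader of acetylated histones. For *Ep300* they were *Psmb5*, *Pgam1* and *Gskip*, all at r = 0.998, with *Psmb5*, a proteasome subunit, at 3.51, 1.9 and 76.2 CPM.

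IP against input asks which RNAs the m6A antibody retained at each stage. *Ep300* RNA was enriched in the IP at all 3 stages. *Cited1* was enriched at MII, where its RNA was scarce, and not at L2C, where it was abundant, and *Crebbp* was near 0 at MII and L2C, with a small excess in the IPs at L1C. *Cited2* was enriched to a degree that depended on single libraries, and *Cited4* was too sparse for a clear value. The IP and input libraries were scaled together here, so that input CPM differ slightly from those above.

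**Figure D2:**
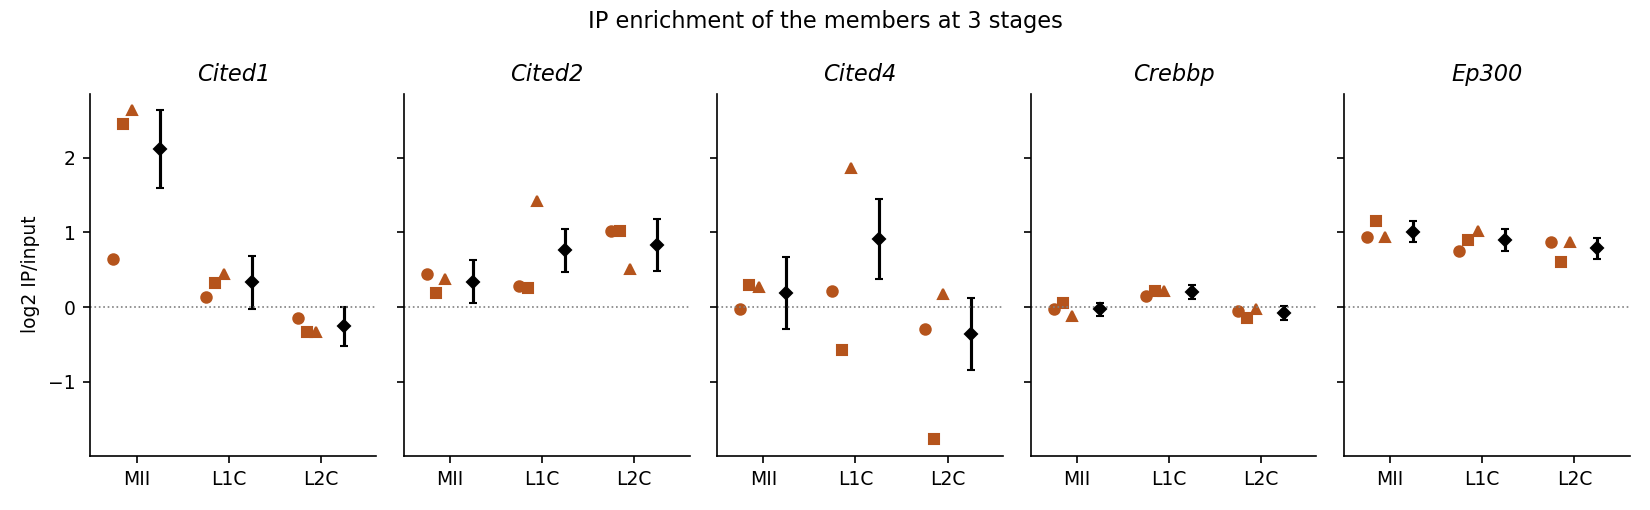
Log2 IP/input of each member, as each IP library over the mean of the 3 inputs of its stage (circle, square and triangle are IP replicates 1, 2 and 3) and as the fitted value ± SE (diamond). *Ep300* lies between 0.6 and 1.15 in every IP library, and *Cited1* goes from a fitted 2.12 at MII to -0.26 at L2C.

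*Ep300* was at 12.8, 8.75 and 9.99 CPM in MII inputs and at 20.1, 23.4 and 20.1 CPM in MII IPs. At L1C the inputs held 7.17, 7.07 and 7.81 CPM and the IPs 12.4, 13.7 and 14.9 CPM. At L2C the inputs held 52.5, 46.2 and 51.3 CPM and the IPs 91.7, 75.6 and 91.2 CPM. IP and input never overlapped. Its log2 IP/input was 1.01 ± 0.14 at MII (adjusted p = 1.4e-05), 0.9 ± 0.15 at L1C (adjusted p = 8.4e-05), and at L2C it was 0.79 ± 0.14 (adjusted p = 0.00012). The differences between stages did not pass the test, at -0.11 ± 0.2 from MII to L1C (adjusted p = 0.87) and -0.22 ± 0.2 from MII to L2C (adjusted p = 0.48). The approximate 95% interval of the latter, -0.61 to 0.16, allows a loss of enrichment. The input level rose 5.95-fold from MII to L2C.

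*Crebbp*, the paralogue of *Ep300*, was at 80.4, 84.4 and 81.1 CPM in MII inputs and at 81, 85.3 and 75.3 CPM in MII IPs. Inputs and IPs also overlapped at L2C, with 101, 90.5 and 99.7 CPM against 93.7, 87.3 and 95.2 CPM. Its log2 IP/input was -0.03 ± 0.09 at MII and -0.08 ± 0.09 at L2C, with approximate 95% intervals of -0.21 to 0.15 and -0.25 to 0.1, and the sign at both stages turned with the scaling (0.21 and 0.18 by library size). At L1C the IPs, at 55.3, 58.4 and 58.1 CPM, were all above the inputs, at 51.5, 49.1 and 49.4 CPM. This log2 IP/input was 0.2 ± 0.09 (adjusted p = 0.11), and passed the test with library size scaling (0.5, adjusted p = 0.00018) and in DESeq2 (0.24, adjusted p = 0.0026).

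*Cited1* held 7, 27 and 26 counts in the MII IPs against 5, 4 and 4 in the inputs, or 0.4, 1.4 and 1.6 CPM against 0.264, 0.24 and 0.268. The IP libraries were above all inputs, and IP replicate 1 only narrowly. The log2 IP/input was 2.12 ± 0.52 (adjusted p = 0.0031), and between 1.81 and 2.52 with any library of that stage left out. The gene passed the filter through the later stages, and in a fit of the MII libraries alone it was not tested. At L1C inputs and IPs overlapped, with 0.436, 1.69 and 1.27 CPM against 1.24, 1.42 and 1.53 CPM, and the log2 IP/input was 0.33 ± 0.36 (adjusted p = 0.52). At L2C the IPs held 33.1, 29.1 and 29.1 CPM and the inputs 35.7, 40.5 and 33.6, so that no IP library reached an input library. The log2 IP/input of -0.26 ± 0.26 at L2C did not pass the test (adjusted p = 0.43). The difference between stages was tested directly: from MII to L2C the log2 IP/input fell by 2.38 ± 0.59 (adjusted p = 0.0066), and from MII to L1C it differed by -1.78 ± 0.65 (adjusted p = 0.11).

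*Cited2* was at 13.7, 18.7 and 19.6 CPM in MII inputs and at 23.5, 19.8 and 22.4 CPM in MII IPs. These groups did not overlap, but lay close together, with a log2 IP/input of 0.34 ± 0.29 (adjusted p = 0.39). At L1C the IPs held 23.9, 23.5 and 52.8 CPM and overlapped the inputs at 13.7, 27.3 and 18.1 CPM. *Cited2* had a log2 IP/input of 0.76 ± 0.29 at L1C (adjusted p = 0.045), and 0.26 without IP replicate 3 (adjusted p = 0.47). With the replicate number as a block it was 0.71 and did not pass the test (adjusted p = 0.092). Leaving out L1C input replicate 1 or 3 also ended the call (adjusted p = 0.19 and 0.13). At L2C the IPs held 2.57, 2.56 and 1.81 CPM and lay above the inputs at 1.05, 1.08 and 1.67 CPM. The log2 IP/input at L2C was 0.83 ± 0.35 (adjusted p = 0.065), and passed the test under 5 of the alternatives tried and without L2C input replicate 3, with adjusted p from 0.0067 with no filter to 0.047 among protein-coding genes only.

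*Cited4* held 1.74, 2.04 and 2.35 CPM in MII inputs and 2, 2.49 and 2.46 CPM in MII IPs. At L1C the IPs held 15, 11 and 77 counts, or 0.667, 0.39 and 2.11 CPM, and again replicate 3 stood apart. Inputs and IPs overlapped at each stage, and no log2 IP/input passed the test, which stood at 0.19 ± 0.48 for MII, 0.91 ± 0.54 for L1C and -0.36 ± 0.48 for L2C. An approximate 95% interval of -1.3 to 0.58 at L2C spans enrichment as well as depletion. Without IP replicate 3 the L1C value was -0.14.

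At MII 2 of the 5 members were called in IP against input, beside 38.6% of the 21950 genes tested. At L1C 2 were called, beside 33.9%, and at L2C 1, beside 44.0%. Under a looser rule for m6A-tagged RNAs, applied to the same edgeR fit (log2 IP/input above 0, unadjusted P under 0.05 and more than 1 count in each input) the tagged members were *Cited1* and *Ep300* at MII, where 19.2% of genes were tagged. They were *Cited2*, *Crebbp* and *Ep300* at L1C, where 18.6% were, and *Cited2* and *Ep300* at L2C, where 23.9% were. Of the changes of IP enrichment between stages, that of *Cited1* from MII to L2C was the single call, beside 20.3% of all genes. From MII to L1C edgeR called 0 members, beside 7.33% of all genes, with 1 at an unadjusted P under 0.05 and 1 in DESeq2. From L1C to L2C edgeR called 0 members, beside 9.47%, with 0 at an unadjusted P under 0.05 and 1 in DESeq2, which was *Crebbp*. Scaling by library size in place of TMM shifted the median log2 IP/input of all genes from 0.0 to 0.2 at MII, from 0.07 to 0.37 at L1C and from 0.09 to 0.34 at L2C, and the share of calls higher in the IP from 45.7% to 61.7%, from 46.5% to 70.9% and from 50.0% to 67.6%. Of the changes of IP enrichment, it moved that share from 42.6% to 53.3% between MII and L1C.

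The knockdown compares RNAs of L2C embryos that received crRNAs against *Ythdc1* with those of Ctrl embryos that received no crRNA. Loss of *Ythdc1* and the presence of crRNAs cannot be told apart in this design. *Ythdc1* itself was at 523, 541 and 519 CPM in the KD libraries and at 1080, 1100 and 994 CPM in the Ctrl libraries, as CPM of the merged table. It fell by 1.0 ± 0.06 in log2 (adjusted p = 1.3e-10), that is to 0.499 of Ctrl. The 3 *Cited* genes went in different directions, *Cited1* to a far higher level and *Cited2* and *Cited4* to few or no counts, while *Crebbp* fell and *Ep300* rose slightly.

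**Figure D3:**
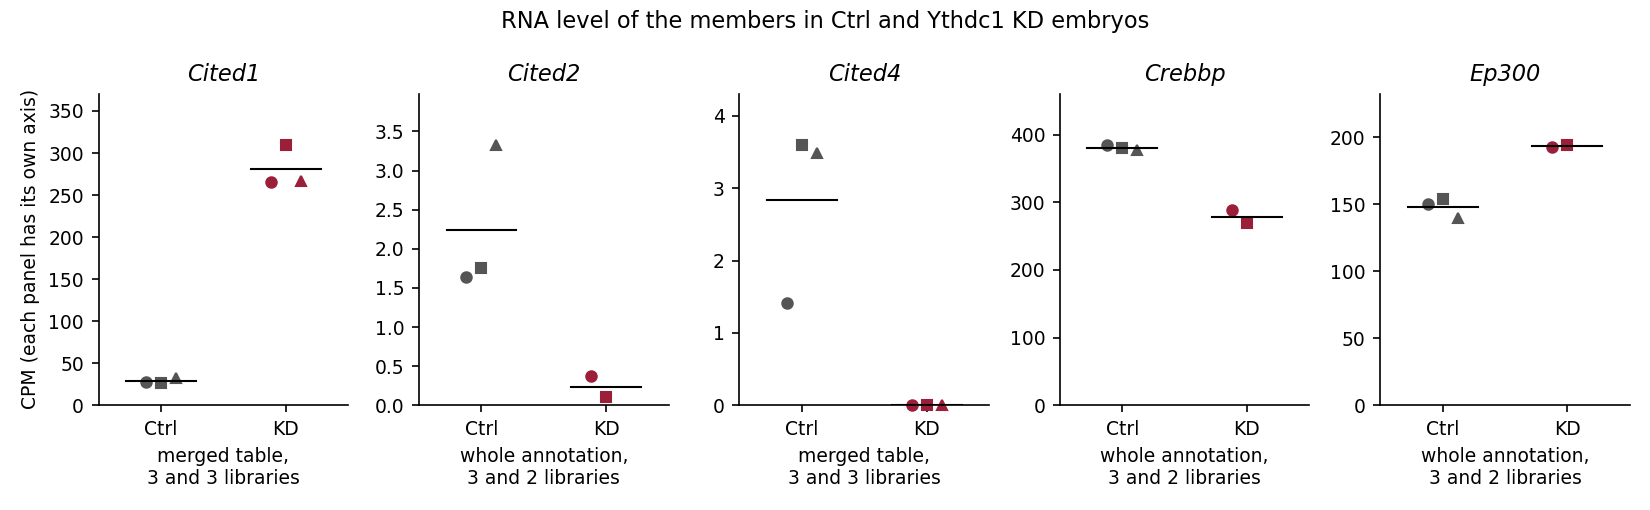
CPM of each member in Ctrl and KD embryos (circle, square and triangle are replicates 1, 2 and 3, and lines are means). Each panel has its own axis, and CPM of the merged table are scaled to a part of the genes, so that heights compare within a panel only. *Cited1* has a mean of 28.8 CPM in Ctrl and 280 in KD, and *Cited4* is at 0 in all 3 KD libraries.

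*Cited1* held 1112, 1109 and 1377 counts in the KD libraries, or 266, 309 and 267 CPM of the merged table. The Ctrl libraries held 155, 132 and 113 counts, or 27.5, 26.3 and 32.7 CPM. The groups were far apart, with every KD library several times above the highest Ctrl library. The fitted log2 change, on which the gene was chosen, was 3.29 ± 0.11, or 9.8-fold. With the whole annotation and 2 KD libraries it was 3.33, and over the libraries left out in turn it lay between 3.23 and 3.38.

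*Cited4* held no count in any of the 3 KD libraries and 8, 18 and 12 in the Ctrl libraries, or 1.42, 3.59 and 3.48 CPM. Its counts did not pass the filter on low values in the fit of the merged table. Here 3 counts over the KD group were taken as the limit that a count of 0 allows, and the 38 Ctrl counts were taken as exact. On these terms the level was at least 11.6-fold lower in KD embryos. This bound covers counting error in the KD group only, and with that of the Ctrl counts it would be lower. Since *Cited4* can pass a filter only through the Ctrl libraries, no p is given for it.

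*Cited2* held 4 and 1 counts in the KD libraries, or 0.37 and 0.107 CPM of the whole annotation. The Ctrl libraries held 24, 23 and 30 counts, or 1.64, 1.76 and 3.32 CPM. The groups did not overlap, and *Cited2* fell by 3.09 ± 0.65 in log2. It passed the filter on low values only through the Ctrl libraries, so no p is given for it either. With a single KD library the value rested on 1 or 4 counts, and *Cited2* stood at -4.21 without KD replicate 1 and at -2.51 without KD replicate 2. Pooled, 77 Ctrl counts stood against 5 KD counts, a ratio of 8.45 with an exact 95% interval of 3.47 to 26.8 for counting error only.

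*Crebbp* was at 288 and 270 CPM in the KD libraries and at 384, 380 and 378 CPM in the Ctrl libraries. It fell by 0.45 ± 0.07 in log2 (adjusted p = 7.9e-05). *Ep300* was at 193 and 194 CPM in the KD libraries against 150, 154 and 140 CPM in the Ctrl libraries, and rose by 0.39 ± 0.08 in log2 (adjusted p = 0.00062). Neither gene overlapped between groups, and *Crebbp* was 1.36-fold lower where *Ep300* was 1.31-fold higher. These directions were the same with library size scaling (-0.52 and 0.31) and with any library left out.

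Of the members that lie beyond the merged table, *Crebbp* and *Ep300* were called. *Cited2* is not counted, since it passed the filter only through the Ctrl libraries. Over all genes, 66.8% of 17074 were called with the whole annotation and 70.9% of the 7433 tested in the merged table. A call alone therefore sets no gene apart here. In KD libraries the 2-cell markers summed to 285 to 317 CPM against 873 to 936 in Ctrl, and the oocyte markers to 740 to 816 against 1560 to 1700. The cumulus list summed to 37.8 to 41.1 CPM against 24.3 to 31.9. *Amhr2* made up most of it, with means of 30.1 CPM in KD and 20.1 in Ctrl. *Tnfaip6* had means of 8.62 and 7.58 CPM and *Cyp11a1* of 0.506 and 0 CPM in KD and Ctrl. *Ptx3*, *Fshr* and *Inhba* were at 0 in both groups. The part of these markers in the changes of the members was not tested. Library size scaling shifted the median log2 change of all genes in the merged table from -0.06 to -0.19.

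As CPM per kb of merged exons over the whole annotation, *Crebbp* led in Ctrl embryos with 28.1 ± 0.22 (n = 3), before *Ep300* with 10.3 ± 0.506, *Cited1* with 6.31 ± 0.728, *Cited2* with 0.912 ± 0.382 and *Cited4* with 0.869 ± 0.374, the last 2 overlapping. In KD embryos *Cited1* led with 63.2 ± 6.38 (n = 2), before *Crebbp* with 20.6 ± 0.895 and *Ep300* with 13.5 ± 0.0609. *Cited1* was thus the most abundant of the 5 RNAs per length in KD embryos and not in Ctrl embryos. In the L2C inputs of the SLIM-seq experiment, which were counted over introns as well, *Cited1* also led, with 21.7 before *Crebbp* with 7.45. The order in Ctrl embryos thus differed from that in the inputs of the same stage. The cause of this difference was not tested.

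The proteins that work with CITED, CBP and p300 were followed in lists of 47 genes in all, each compared over the whole annotation in 2 KD and 3 Ctrl libraries. The median log2 change of all genes was 0.17 from L1C to L2C and -0.09 in the knockdown, and the members of these lists, too, were called against the high backgrounds given above. The lists describe the setting of the 5 genes and are set apart from other genes by no test. In the knockdown some list genes passed the filter on low values only through the group where they were higher. These were *Tfap2a* (means of 1.94 CPM in Ctrl and 0.307 in KD), *Hif3a* (2.67 and 0.545) and *Crtc2* (0.295 and 1.54). Their changes are a description, although the counts of genes that rose or fell include them.

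Of 9 lysine acetyltransferases outside the CBP and p300 family, 3 rose and 6 fell from L1C to L2C, with a median of -0.47. *Kat2b* and *Kat2a*, which encode PCAF and GCN5, rose by 3.63 ± 0.24 and 2.37 ± 0.16 in log2. In the knockdown 5 rose, 1 fell and 3 did not pass the test, with a median of 0.26. *Hat1*, which acetylates newly made histone H4, rose by 1.12 ± 0.11 (adjusted p = 6.1e-07) and *Kat2b* by 1.2 ± 0.19 (adjusted p = 5e-05).

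Of the 5 p160 coactivators and their arginine methyltransferases, all rose from L1C to L2C, with a median of 1.14, led by *Prmt1* with 5.74 ± 0.18. In the knockdown *Prmt1* rose by 1.29 ± 0.12 (adjusted p = 3.1e-07) while the p160 genes *Ncoa1* and *Ncoa2* fell by 0.74 ± 0.08 and 0.78 ± 0.09 in log2, and the other 2 genes did not pass the test. Of the 4 class I deacetylases, which remove acetyl groups, 1 rose and 2 fell from L1C to L2C. *Hdac1* was the one that rose, by 4.57 ± 0.18, and in the knockdown it rose by 0.25 ± 0.08 (adjusted p = 0.015), the single call among 3 tested.

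**Figure D4:**
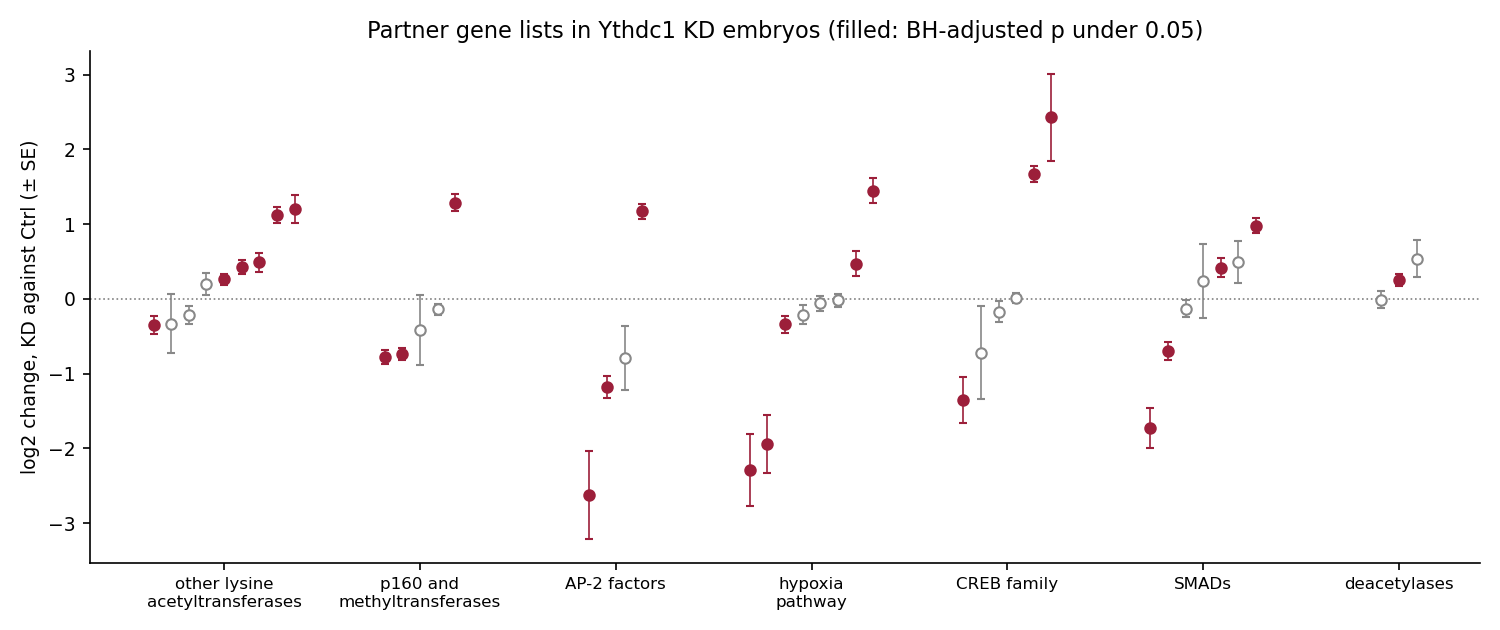
Log2 change ± SE between KD and Ctrl embryos for each tested gene of the 7 partner lists, over the whole annotation (filled points have a BH-adjusted p under 0.05). Every list but the deacetylases holds genes called in both directions.

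Among transcription factors that CITED proteins bind or compete with, 1 of the 5 AP-2 genes rose, 3 fell and 1 did not pass the test from L1C to L2C, with a median of -1.05. *Tfap2c* rose by 1.04 ± 0.15, and *Tfap2b* and *Tfap2e* fell by 1.8 ± 0.16 and 2.09 ± 0.21, with *Tfap2a* the other that fell. In the knockdown *Tfap2c* rose by 1.17 ± 0.1 (adjusted p = 9.7e-08), *Tfap2e* fell by 1.18 ± 0.15 and *Tfap2a* fell by 2.63 ± 0.59, with 4 of the 5 genes tested. Of 10 genes of the hypoxia pathway, 3 rose, 3 fell and 4 did not pass the test from L1C to L2C. *Hif1a*, whose protein CITED2 opposes, fell by 3.72 ± 0.23, close to the 3.69 by which *Cited2* fell. *Vhl*, which directs the alpha subunit to degradation, rose by 6.23 ± 0.21. In the knockdown 2 of 8 tested hypoxia genes rose and 3 fell. *Hif1an*, a hydroxylase that blocks the binding of CBP and p300 to the alpha subunit, rose by 1.45 ± 0.17 (adjusted p = 3e-06), and *Epas1* and *Hif3a* fell by 1.94 ± 0.39 and 2.29 ± 0.48.

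Of 6 genes of the CREB group, 3 rose and 2 fell from L1C to L2C, among them *Crem* with 3.26 ± 0.2 and *Atf1* with 1.7 ± 0.14. In the knockdown *Creb1*, the factor for which CBP is named, rose by 1.67 ± 0.11 (adjusted p = 8.5e-09), *Crtc2* rose by 2.43 ± 0.58 from a level of 0.295 CPM, and *Crtc3* fell by 1.35 ± 0.31. Of 8 SMAD genes, 1 rose and 6 fell from L1C to L2C, with a median of -1.18. *Smad1*, a transducer of bone morphogenetic protein signals, fell by 3.11 ± 0.17, and *Smad7* was the one that rose, by 3.65 ± 0.24. In the knockdown 2 of 7 tested SMAD genes rose and 2 fell. *Smad7* rose by 0.98 ± 0.1 in log2 (adjusted p = 8.8e-07), and *Smad1* and *Smad3* had log2 changes of -1.73 ± 0.27 and -0.7 ± 0.12.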

How the data were processed

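SLIM-seq (9 input and 9 IP libraries) and *Ythdc1* knockdown RNA-seq (3 KD and 3 Ctrl libraries) were analysed from processed files. The estimated counts deposited by the authors came from kallisto, with each gene span on GRCm38, introns included, as 1 target, and are not scaled to library size. The TPM values deposited by the authors came from the same runs. The raw counts deposited by the authors for the knockdown came from Trimmomatic, HISAT2 and featureCounts v2.0.1, over exons and without strand.

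Estimated counts were rounded. Counts were scaled by TMM, filtered by filterByExpr and tested by the quasi-likelihood test of edgeR 4.0.16 (R 4.3.3), jointly over 9 inputs for RNA, over 18 libraries for IP, and over KD and Ctrl alone, with Benjamini-Hochberg (BH) adjustment over all genes tested. DESeq2 1.42.0 was the other tool. Python 3.11.15, pandas 2.3.3, scipy 1.17.1 and matplotlib 3.10.9 made tables and figures. GENCODE M21 gave exons. The fits were tested on simulated data before use.

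Samples were grouped by their titles. Members and gene lists were chosen with earlier results of these data known. Named genes were the 5 members, *Ythdc1*, the 3 most correlated genes of each member, and up to 3 genes per list with the smallest p. The markers that were at 0, and *Amhr2*, *Cyp11a1*, *Inhba*, *Ptgs2* and *Tnfaip6*, were named after their values were seen. Replicate numbers were checked for pairing: deviations of same-numbered libraries from their group means correlated between -0.301 and 0.318, and in no pair of groups were all 3 over 0.1, so that they were not taken as pairs. IP and input RNA shared batches, but no source used here ties a batch to a replicate number. All replicates differed by more than counting error. The result of 1 gene list is not reported here. Depth limits the values of *Cited1* at MII and of *Cited4* throughout.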

Additional observations from a re-analysis of the deposited data

Results flagged for a closer look

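The IP enrichment of *Cited1* differed between stages by a test of the difference itself: the change of log2 IP/input from MII to L2C was -2.38 ± 0.59 (adjusted p = 0.0066 in edgeR). All 3 MII IP libraries lay above the mean of the MII inputs, at log2 ratios of 0.64, 2.45 and 2.64, and all 3 L2C IP libraries lay below that of the L2C inputs, at -0.14, -0.33 and -0.33. The MII value rests on 60 counts in the IPs and 13 in the inputs. *Cited1* passed the filter on low values through the later stages, and in a fit of the MII libraries alone it was not tested. It was the single member called for this change, beside 20.3% of all genes, so the call alone does not set it apart. Over all alternatives the change lay between -2.79 and -2.09.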

How the results depend on the processing

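Of 670 values of members under alternative settings, 626 kept their direction and their side of the threshold, 11 lost a call, 13 gained one and 20 changed sign. The cause of these changes was not tested unless the setting itself shows it. The log2 IP/input of *Crebbp* at MII changed sign in DESeq2 (0.04), with library size scaling (0.21), with protein-coding genes only (0.03) and with only the stages compared (0.02), and at L2C with library size scaling (0.18). The change of enrichment of *Cited2* from L1C to L2C was -0.12 with only the stages compared. Deposited TPM turned *Crebbp* at L2C over MII to -0.16. Compared with *Crebbp*, TPM turned *Cited4* to 1.75, 0.71 and 0.97 at MII, L1C and L2C and *Ep300* at L2C to 0.04 in log2, since TPM divide by gene spans that hold the long introns of *Crebbp*.

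With single libraries left out, the values that changed sign ranged from -0.04 to 0.49 for *Cited2* and from -0.5 to 0.0 for *Cited4* in RNA (L1C and L2C over MII). IP/input ranged from -0.07 to 0.02 for *Crebbp* at MII and from -0.08 to 0.77 for *Cited1* and from -0.14 to 1.3 for *Cited4* at L1C. Changes of enrichment from MII to L1C ranged from -0.08 to 0.73 for *Cited2*, from -0.33 to 1.11 for *Cited4* and from -0.28 to 0.0 for *Ep300*, and from L1C to L2C from -0.25 to 0.56 for *Cited2*.

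The number of members called from MII to L1C in RNA fell from 4 to 2 with only the stages compared, where *Cited1* no longer passed the filter and *Ep300* lost its call (adjusted p = 0.081, and 0.061 with library size scaling). IP against input at MII fell to 1 there, again without *Cited1*. At L1C it was 1 with only the stages compared and between 1 and 2 with a library left out. At L2C it was 2 in DESeq2, with library size scaling, with no filter, with protein-coding genes only, with only the stages compared and under the m6A-tagged rule given above, and between 1 and 2 with a library left out. The change of enrichment from MII to L1C was called for 1 member, *Cited1*, in DESeq2 (adjusted p = 0.029) and with no filter (adjusted p = 0.016), and for 0 to 1 with a library left out (1 without MII IP replicate 1 or L1C input replicate 1). From L1C to L2C it was called for 1 in DESeq2. In the knockdown, a rule of an unadjusted P under 0.05 and a log2 change over 1 in size called 1 of 3 members. Of the 17074 genes tested, 2456 were higher and 4183 lower under this rule, so the count of members says nothing about them. The member called was *Cited2*, which passed the filter only through the Ctrl libraries.

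With the replicate block, IP against input at L1C called 1 member, since *Cited2* was at 0.71 (adjusted p = 0.092), and no other call changed. The block lowered the genes called with higher enrichment at L1C than MII from 686 to 380, and those at L2C against L1C from 1098 to 603 higher and from 981 to 565 lower. With only the stages compared these were 444 and 566 higher and 1687 lower, and 1741 were lower in DESeq2. Library size scaling called 6372 higher and 2613 lower in the IP at L1C (3463 and 3988 with TMM) and 7315 higher at L2C (4830 with TMM). By Spearman rank, 0 of the 3 most similar genes remained among the first 3 for *Cited1*, *Crebbp* and *Ep300*, and 1 each for *Cited2* and *Cited4*.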
